A study of Mus musculus with 30 samples.

Results

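Extracellular proteases of the metalloproteinase group and their inhibitors were followed in the extensor digitorum longus (EDL) muscle, a fast muscle of the lower hind limb, in mice with experimental autoimmune encephalomyelitis (EAE) and in controls. The genes were taken by name, as every gene whose symbol began with MMP, ADAM, ADAMTS or TIMP and a member number (ADAMTS-like genes included) and whose mean over the 30 mice was above 0.3 RPKM (reads scaled to exon length and to library size). Of the 21073 genes measured, 84 had such a name and 42 passed the level: 12 of 23 matrix metalloproteinases (MMPs), 10 of 33 ADAMs, 11 of 19 ADAMTS proteases, 5 of 5 ADAMTS-like genes and 4 of 4 tissue inhibitors of metalloproteinases (TIMPs). Of the other 42, 13 had no read in any mouse. The rule used only the name and the mean over all mice. MMP8 alone passed through the groups where it was high: its mean was 0.375 RPKM with the OVA mice of day 14 and 0.284 RPKM without them, whereas each of the other 41 genes stayed above the level without its highest group. Counts of called genes in the main fits that include MMP8 are therefore also given without it, and its differences are a description. Counts under other settings keep MMP8 where it was called. Just inside the level stood ADAMTS7 and MMP8, both at 0.375 RPKM, and ADAMTS12 at 0.377 RPKM, and just outside stood MMP7 at 0.272, ADAMTS6 at 0.271 and ADAM11 at 0.257 RPKM.

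All 30 animals were wild-type female SJL mice, and each of the 6 groups held 5 of them. Ctrl mice received no immunization. OVA mice received ovalbumin in complete Freund's adjuvant (CFA), and EAE mice received the myelin peptide [Ser140]-PLP139-151 in CFA without pertussis toxin, so that EAE and OVA mice share the adjuvant. Whole EDL muscles were taken at day 14, the peak of disease, or at day 40, in chronic remission, from different mice on each day. The comparison of EAE with Ctrl therefore holds the effect of CFA together with that of the myelin peptide, the comparison of EAE with OVA holds the antigen, and that of OVA with Ctrl holds CFA with an antigen foreign to the nervous system. The labels number the mice and give neither their age nor litters or cages, and p-values measure the spread between these mice.

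MMPs are zinc endopeptidases, secreted or held at the cell surface as inactive precursors, that cut collagens, gelatins, elastin and proteoglycans. ADAMs are membrane proteins, several of which release the outer part of other membrane proteins, a process called shedding. ADAMTS proteases are secreted and cut proteoglycans such as aggrecan and versican or trim procollagens, whereas ADAMTS-like proteins have no protease domain and bind microfibrils. TIMPs bind and block active MMPs, and TIMP3 also blocks ADAM17 and several ADAMTS proteases. In skeletal muscle these genes are known from the turnover of the matrix around fibres, tendon and vessels, and from injury and repair.

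The MMP genes that neighbour each other on chromosome 9 gave calls in opposite directions at day 14, so the promoters of the 3 members among them are shown. These are low genes, and on log2(RPKM + 1), which shrinks such differences, none of the 3 calls against Ctrl was kept. The locus held 10 named MMP genes from position 7272514 to 7699585 (mm10), of which MMP12, MMP3 and MMP8 were above 0.3 RPKM. MMP12 and MMP3 were lower in EAE than in Ctrl mice of day 14, and MMP8 was higher. The higher call is thus that of MMP8 alone, which passed the level only through its high groups and is a description. The call of MMP3 was lost when some single mice were left out. Whether the promoters bear on these directions was not tested. The sequences run 5′ to 3′ from 250 bases before to 50 bases after an annotated start on the plus strand (RefSeq, GRCm38.p6, the assembly named mm10), and capitals mark the AP-1 heptamer TGAGTCA or TGACTCA, searched on both strands.
MMP3, chr9:7445572-7445871: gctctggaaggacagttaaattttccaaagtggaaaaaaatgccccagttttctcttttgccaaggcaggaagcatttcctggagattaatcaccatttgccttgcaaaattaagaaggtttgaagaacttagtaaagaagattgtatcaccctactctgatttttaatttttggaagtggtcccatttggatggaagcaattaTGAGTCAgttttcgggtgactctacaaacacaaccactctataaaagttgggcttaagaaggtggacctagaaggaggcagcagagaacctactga
MMP12, chr9:7347124-7347423: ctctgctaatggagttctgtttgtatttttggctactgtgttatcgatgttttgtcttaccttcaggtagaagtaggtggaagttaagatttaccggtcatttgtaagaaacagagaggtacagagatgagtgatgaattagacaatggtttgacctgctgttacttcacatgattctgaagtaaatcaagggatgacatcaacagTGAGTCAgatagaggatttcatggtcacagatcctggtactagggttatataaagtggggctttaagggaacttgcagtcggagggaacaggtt
MMP8, chr9:7558179-7558478: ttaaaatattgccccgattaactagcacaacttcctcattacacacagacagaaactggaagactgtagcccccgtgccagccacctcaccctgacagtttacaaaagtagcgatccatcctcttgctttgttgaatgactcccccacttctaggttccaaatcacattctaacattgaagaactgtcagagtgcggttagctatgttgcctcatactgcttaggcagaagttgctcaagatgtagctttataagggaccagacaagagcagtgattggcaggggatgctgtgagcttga
The heptamer began 46 bases before the start in MMP3 and 44 bases before it in MMP12, and these letters were not found in the MMP8 window. A second annotated start of MMP12, upstream of the one shown, had no heptamer in its window. Of the 30 members with a promoter in the table, 3 held the heptamer (10%), the other being ADAM19, against 5.95% of 27025 genes. The 3 windows on chromosome 9 each also held TATAAA or its reverse complement near the start, which 5 of the 30 members (16.7%) and 15.7% of all genes did.

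In level, TIMP2 (73.2 RPKM over the 30 mice), MMP2 (43.7), TIMP3 (39.7) and ADAMTSL5 (26.1) led the 42 genes. They were followed by ADAM9 at 20.8, ADAM15 at 19.0 and MMP14 at 15.4 RPKM. In all, 10 genes had a mean above 10 RPKM and 9 a mean below 1 RPKM. Summed over the 42 genes, the level was 379 ± 29.5 RPKM in Ctrl, 348 ± 27.7 in OVA and 295 ± 25.8 in EAE mice of day 14 (SD, n = 5). At day 40 the sums were 376 ± 14.4, 365 ± 22.8 and 344 ± 17.2 RPKM. The sum of the 12 MMPs, of which MMP2 was the largest member, lay between 93.7 and 107 RPKM in Ctrl mice of day 14, between 67.8 and 91.5 in OVA mice and between 49.5 and 68.8 in EAE mice. The sum of the 11 ADAMTS proteases was 33.4 ± 5.94, 36.8 ± 7.17 and 38.2 ± 7.58 RPKM in the same order, so its groups overlapped.

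**Figure D1:**
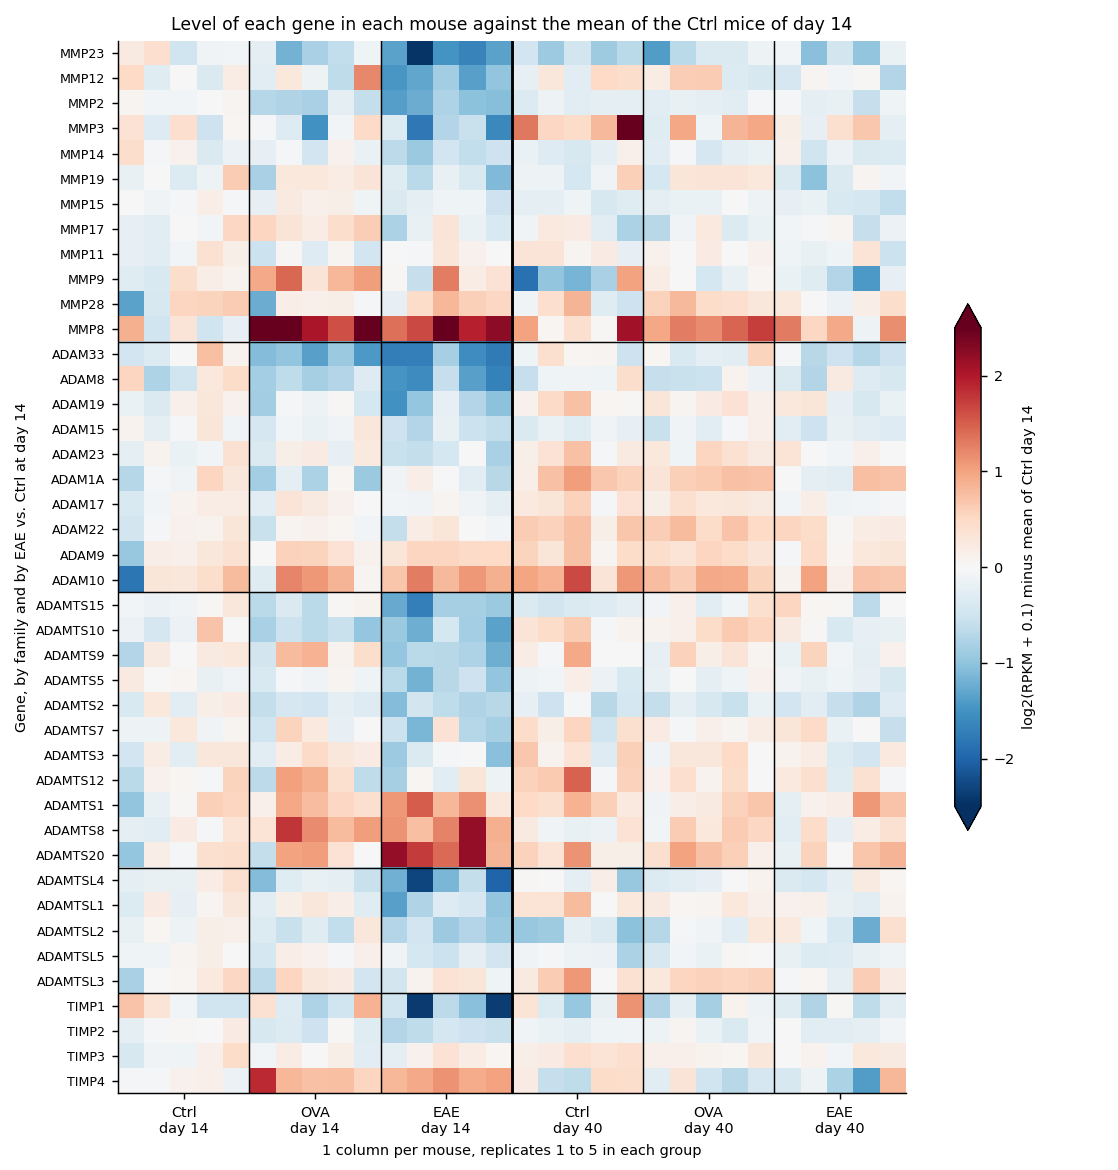
Level of the 42 genes (rows, by family) in each of the 30 mice (columns), as log2(RPKM + 0.1) minus the mean of the 5 Ctrl mice of day 14. Red is higher and blue is lower, with colours ending at 2.5 in either direction, and blue fills much of the EAE block of day 14 whereas MMP8, ADAMTS8, ADAMTS20 and TIMP4 are red there.

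Libraries held 17.9 to 31.2 Mreads (units of 1e6 reads) on genes, as inferred from the value of single reads, with a median of 21.4 Mreads. Markers of skeletal muscle fibres led in every mouse, at 75820 RPKM or more in sum over 12 genes. In 5 libraries genes with more than 6000 bases of exon and genes with fewer than 1500 bases moved apart by more than 0.5 on the log2 scale against their group medians. These were replicate 1 of Ctrl (-0.68), OVA (-0.82) and EAE (-0.57) and replicate 5 of OVA (-0.63) at day 14, and replicate 3 of Ctrl at day 40 (0.56). Of the 42 genes, 21 had their lowest value among Ctrl mice of day 14 in replicate 1, and 24 had theirs among OVA mice in replicate 1. Counts of genes were therefore repeated without these 5 libraries and with a correction for exon length, both chosen after seeing the data. Replicate 3 of EAE at day 14, the library with the most reads, did not stand apart by exon length (0.03). It held the highest value of its group for 24 of the 42 genes. Without it 20 of the 42 genes were lower in EAE than in Ctrl at day 14, where 17 were with all mice.

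At day 14, EAE was set against Ctrl to find the combined effect of the myelin peptide and CFA. Of the 42 genes, 5 were higher and 17 lower (limma, fold over 1.5 with adjusted p under 0.05), where 12% of all 12806 genes tested were called higher and 13.8% lower. MMP8, ADAMTS20, ADAMTS8, ADAMTS1 and TIMP4 made up the higher set, which is 4 genes of 41 without MMP8. Among the lower genes were the gelatinase MMP2, its surface activator MMP14, the inhibitor TIMP1, and MMP3, MMP12 and MMP23, with 3 ADAMs, 5 ADAMTS proteases and 3 ADAMTS-like genes. In 4 genes, which were MMP8, ADAMTS20, ADAMTS8 and TIMP4, all 5 EAE mice were above all 5 Ctrl mice. In 13 genes all were below, against 16.4% and 10.8% of all genes. The median log2 fold change was -0.50 over the 42 genes and 0.05 over all genes tested. In muscle as a whole, fewer cells of a type and less RNA per cell cannot be told apart. Without the libraries that stand apart the counts were 5 and 18, of which 5 and 16 were the same genes, and with the correction for exon length 6 and 21, which held all 22. On log2(RPKM + 1) they were 4 and 12.

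Beside these differences, markers of several cell types moved with the groups, and their part in the results was not tested. Their counts stand against the 12% of all genes called higher and the 13.8% called lower. Fibroblast markers fell in 10 of 11 genes, and their sum was 1621 to 1810 RPKM in Ctrl and 806 to 1152 RPKM in EAE mice. Tendon markers fell in 9 of 10, and the other, SCX, rose from 14.9 ± 3.49 RPKM in Ctrl to 76.0 ± 54.2 RPKM in EAE mice (SD, n = 5). Macrophage markers fell in 7 of 12 with sums of 345 to 504 RPKM in Ctrl and 161 to 359 RPKM in EAE mice. Lymphocyte markers fell in 4 of 7 genes tested. Neutrophil markers rose in 9 of 10 genes tested, and their sum was 8.27 to 14.6 RPKM in Ctrl, 73.5 to 242 in OVA and 222 to 407 in EAE mice, with ELANE and MPO under 0.3 RPKM in every mouse of that day. Against OVA 1 of the 10 rose and 1 fell, near the 8.78% and 9.57% of all genes called higher and lower in that comparison. Their median log2 fold change was -0.75, and the riser was S100A8, at 46.5 RPKM in OVA and 225 RPKM in EAE mice. Endothelial markers fell in 4 of 12, adipocyte markers in 1 of 10, Schwann cell markers in 1 of 10, erythrocyte markers in 4 of 4 tested and fibre markers in 2 of 12. Of 10 genes listed for smooth muscle and pericytes only DES (from 2013 to 3308 RPKM) and ABCC9 (from 21.2 to 37.2 RPKM) were called, both higher. DES made up most of the level of that list, whose sum had a median of 2066 RPKM in Ctrl mice. Which cells the RNA of these 2 genes came from was not tested. Of 7 satellite cell markers tested 2 rose and 1 fell. The counts for adipocytes, Schwann cells, fibres, and smooth muscle and pericytes were near those of all genes.

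MMP2 (Entrez 17390, chr8:92827290-92853421), which degrades gelatin and basement membrane collagen, was the MMP with the highest level. Ctrl mice of day 14 had 58.4, 53.3, 53.2, 55.7 and 58.1 RPKM, OVA mice 34.0, 33.0, 31.8, 46.8 and 36.6 RPKM, and EAE mice 21.5, 23.4, 32.8, 27.2 and 26.7 RPKM. All OVA and EAE mice were below all Ctrl mice, and EAE replicate 3 reached into the OVA range. Against Ctrl, MMP2 fell by 1.09 on the log2 scale in EAE (SE 0.12, adjusted p = 1.19e-05), the smallest adjusted p among the 42 genes. Against OVA the log2 difference of -0.47 (SE 0.12, adjusted p = 0.00811) was below the fold threshold. At day 40 the values ran from 43.8 to 50.7 in Ctrl, 45.7 to 53.5 in OVA and 37.4 to 54.4 RPKM in EAE mice, so the groups overlapped.

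MMP14 (Entrez 17387, chr14:54431598-54442456), a membrane-type MMP that activates the MMP2 precursor in a complex with TIMP2, had 24.5, 17.4, 19.2, 13.9 and 16.1 RPKM in Ctrl mice of day 14. OVA mice had 15.5, 17.3, 12.9, 19.2 and 15.9 RPKM and EAE mice 11.3, 9.40, 12.8, 11.6 and 12.4 RPKM. Every EAE mouse was below every Ctrl and OVA mouse, the nearest pair being 12.8 and 12.9 RPKM. MMP14 fell by 0.64 against Ctrl (SE 0.14, adjusted p = 0.00282), just past the fold threshold, and this call was lost without Ctrl replicate 1 or without EAE replicate 2. The difference from OVA was -0.48 (SE 0.14, adjusted p = 0.02), short of the fold threshold. Day 40 values ran from 12.6 to 19.7 RPKM over all 3 groups.

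MMP9 (Entrez 17395, chr2:164940326-164955850), the gelatinase stored by neutrophils, was not called in any comparison of the main fits. With the correction for exon length it was called lower in EAE than in OVA mice of day 14. Ctrl mice of day 14 had 0.883, 0.832, 1.54, 1.25 and 1.19 RPKM, OVA mice 2.25, 3.2, 1.41, 2.06 and 2.41 RPKM, and EAE mice 1.15, 0.717, 2.85, 1.28 and 1.45 RPKM. OVA mice were the highest as a group but overlapped both others, and the log2 difference of OVA from Ctrl was 0.92 (SE 0.29, adjusted p = 0.273). At day 40 a single Ctrl mouse, replicate 5, had 2.35 RPKM where the other 4 had 0.232 to 0.588 RPKM. The same mouse had 20.3 RPKM of MMP3, 24.2 RPKM of TIMP1 and the highest sum of neutrophil markers among Ctrl mice of day 40, 78.2 RPKM.

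MMP8 (Entrez 17394, chr9:7558429-7568486), the neutrophil collagenase, was the lowest of the 42 genes together with ADAMTS7. Ctrl mice of day 14 had 0.209, 0.0184, 0.111, 0.0183 and 0.0448 RPKM, OVA mice 1.1, 1.20, 0.594, 0.410 and 0.854, and EAE mice 0.333, 0.428, 0.948, 0.542 and 0.686 RPKM. In reads this was about 1 to 12 per Ctrl mouse, 18 to 65 per OVA mouse and 15 to 72 per EAE mouse. All mice of both immunized groups were above all Ctrl mice. Against Ctrl the log2 difference of MMP8 was 2.39 in OVA and 1.97 in EAE (SE 0.32 for each), both past the thresholds, and these are the mice through which it passed the level. OVA and EAE overlapped (log2 difference -0.43, SE 0.32). On log2(RPKM + 1) the EAE difference came to 0.55 and was not called. Neutrophil markers, given above, were also above Ctrl in both immunized groups. In EAE against OVA 1 of the 10 markers tested was higher (S100A8) and 1 lower, near the 8.78% and 9.57% of all genes. The median log2 fold change of these markers was -0.75. Their part in the MMP8 result was not tested.

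MMP12 (Entrez 17381, chr9:7344397-7360461), the elastase of macrophages, had 1.35, 0.737, 0.914, 0.694 and 1.06 RPKM in Ctrl mice of day 14. OVA mice had 0.748, 1.14, 0.836, 0.558 and 2.27 RPKM, and EAE mice 0.272, 0.319, 0.462, 0.303 and 0.416 RPKM. No EAE mouse reached the lowest Ctrl or OVA mouse. MMP12 fell by 1.19 against Ctrl (SE 0.28, adjusted p = 0.00389) and by 1.28 against OVA (SE 0.28, adjusted p = 0.00329). On log2(RPKM + 1) the difference from Ctrl came to -0.52 and was not called. MMP3 (stromelysin), the neighbour of MMP12, ran from 1.14 to 2.26 RPKM in Ctrl and from 0.417 to 1.30 RPKM in EAE mice, which overlapped. Its call against Ctrl (-1.0, SE 0.35, adjusted p = 0.0333) was lost in 5 of 10 fits that each left out 1 mouse, on log2(RPKM + 1) and with quantile normalization.

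MMP23 (Entrez 26561, chr4:155650655-155654539), a membrane MMP with an unusual carboxyl end, had the largest fall of the 42 genes. Its values were 4.34, 5.00, 2.58, 3.49 and 3.52 RPKM in Ctrl, 3.13, 1.57, 2.07, 2.37 and 3.42 in OVA and 1.41, 0.593, 1.25, 1.09 and 1.40 RPKM in EAE mice of day 14. EAE mice were below all others, and OVA and Ctrl mice overlapped. MMP23 fell by 1.66 against Ctrl (SE 0.25, adjusted p = 1.49e-04) and by 1.07 against OVA (SE 0.25, adjusted p = 0.00470). At day 40 EAE mice had 1.75 to 3.52 RPKM and Ctrl mice 1.91 to 2.65 RPKM.

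**Figure D2:**
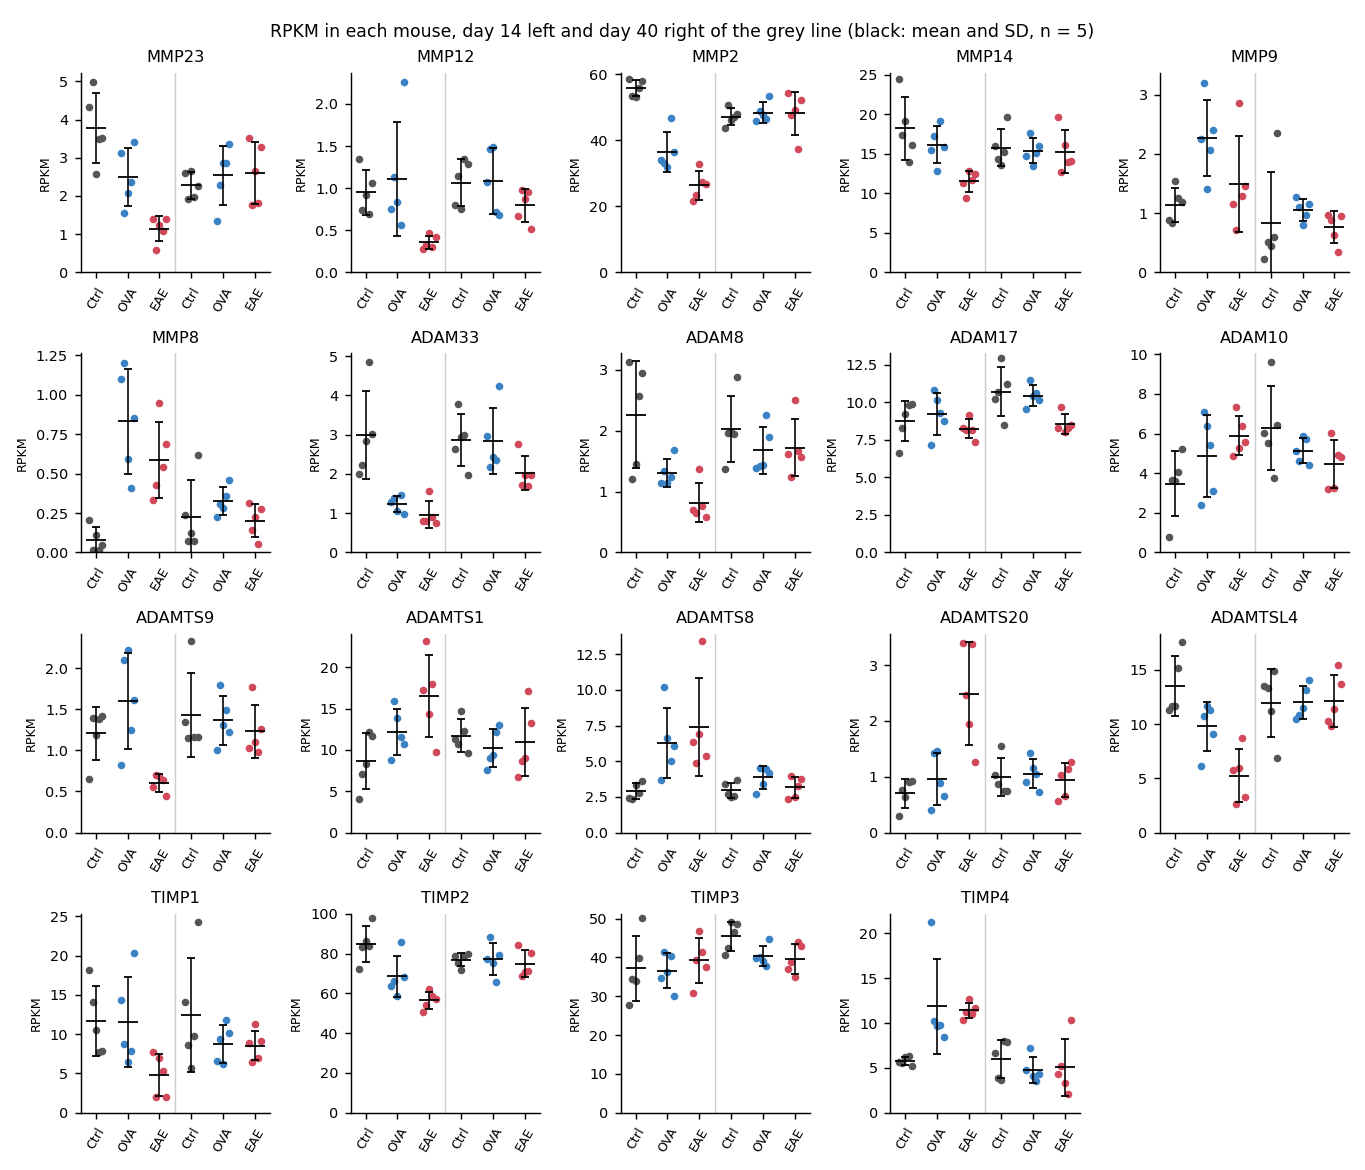
RPKM (vertical axis, from 0) of the 19 genes described in full, with 1 point per mouse, grey for Ctrl, blue for OVA and red for EAE, day 14 left and day 40 right of the grey line. Black bars give the mean and SD of 5 mice and end at 0 where they would pass it. In MMP2 the 3 groups of day 14 step down from 55.7 to 36.4 and 26.3 RPKM and overlap at day 40.

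Among the ADAMs, 3 of 10 fell and 0 rose against Ctrl at day 14, against 13.8% and 12% of all genes tested. None was called against OVA, where 4 had an unadjusted p below 0.05 in limma (40.0%, against 42.6% of all genes tested). Against OVA, ADAM19 was called lower without the libraries that stand apart, with the correction for exon length and with median-of-ratios scaling, and ADAM8 with the latter pair. ADAM33 (Entrez 110751, chr2:131050819-131063814), a protease of mesenchymal cells, had 2.01, 2.23, 2.84, 4.86 and 3.02 RPKM in Ctrl, 1.28, 1.39, 1.05, 1.46 and 0.984 in OVA and 0.792, 0.806, 1.57, 0.899 and 0.761 RPKM in EAE mice. Both immunized groups were below all Ctrl mice and overlapped each other. ADAM33 fell by 1.52 in EAE (SE 0.23, adjusted p = 1.63e-04), and the OVA difference of -1.16 (SE 0.23) had an adjusted p of 0.0516 in limma. That OVA difference was called with log2(RPKM + 1), median-of-ratios scaling, quantile normalization and the correction for exon length. It was not called without the libraries that stand apart or with the replicate number as a block. ADAM8 (Entrez 11501, chr7:139978932-139995207), a sheddase of leukocytes, had 3.13, 1.20, 1.46, 2.56 and 2.95 RPKM in Ctrl, 1.14, 1.33, 1.15, 1.24 and 1.68 in OVA and 0.7, 0.643, 1.38, 0.766 and 0.584 RPKM in EAE mice. EAE replicate 3, the library with the most reads, was the only EAE mouse within the Ctrl range for ADAM8. The fall in EAE was 1.34 (SE 0.26, adjusted p = 0.00118). ADAM19, the third, fell by 0.89 (SE 0.23, adjusted p = 0.00634).

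ADAM10 (Entrez 11487, chr9:70678944-70780229), the sheddase of Notch and cadherins, was not called at day 14. Ctrl mice had 0.780, 3.67, 3.62, 4.07 and 5.21 RPKM, OVA mice 2.38, 7.11, 6.38, 5.42 and 3.10 RPKM and EAE mice 4.89, 7.36, 5.29, 6.38 and 5.6 RPKM. The low values in Ctrl and OVA were from libraries that stand apart by exon length. The difference of EAE from Ctrl was 0.95 (SE 0.41, adjusted p = 0.0734) with all mice, 0.56 without those libraries (adjusted p = 0.00882, below the fold threshold) and 0.82 with the correction for exon length (adjusted p = 0.0492, called). ADAM17 (Entrez 11491, chr12:21323509-21373632), the sheddase of TNF and of ligands of the EGF receptor, had 6.64, 8.26, 9.20, 9.83 and 9.86 RPKM in Ctrl, 7.19, 10.8, 10.1, 9.30 and 8.79 in OVA and 8.30, 8.18, 9.15, 8.19 and 7.39 RPKM in EAE mice. All groups overlapped, and the difference of EAE from Ctrl was -0.08 (SE 0.13). ADAM17 shares 311 exon bases with IAH1 on the other strand, and the use of strand in counting is not given in the sources used here.

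Of the 11 ADAMTS proteases, 3 were higher and 5 lower in EAE than in Ctrl mice, against 12% and 13.8% of all genes tested. ADAMTS20 (Entrez 223838, chr15:94268314-94432074), which cuts versican, had 0.292, 0.755, 0.639, 0.907 and 0.925 RPKM in Ctrl, 0.407, 1.42, 1.47, 0.882 and 0.664 in OVA and 3.40, 2.47, 1.94, 3.38 and 1.27 RPKM in EAE mice. EAE mice were above all Ctrl mice, and replicate 5 lay within the OVA range. ADAMTS20 rose by 1.68 against Ctrl (SE 0.35, adjusted p = 0.00178) and by 1.32 against OVA (SE 0.35, adjusted p = 0.0109). Without the libraries that stand apart the differences were 1.32 (adjusted p = 0.00254) and 0.75, the latter no longer called (adjusted p = 0.0630). ADAMTS8 (Entrez 30806, chr9:30942562-30963838), an aggrecan-cutting protease, had 2.41, 2.38, 3.33, 2.74 and 3.64 RPKM in Ctrl, 3.66, 10.2, 6.61, 4.99 and 6.04 in OVA and 6.37, 4.89, 6.92, 13.4 and 5.37 RPKM in EAE mice. Both immunized groups were above all Ctrl mice. ADAMTS8 rose by 1.24 in EAE (SE 0.27, adjusted p = 0.00253), and the OVA difference of 1.03 (SE 0.27) had an adjusted p of 0.187 in limma.

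ADAMTS1 (Entrez 11504, chr16:85793827-85803113), a protease of versican and aggrecan, had the highest level of its family. Ctrl mice had 4.04, 7.04, 8.28, 12.2 and 11.7 RPKM, OVA mice 8.80, 15.9, 13.8, 11.6 and 10.7 RPKM and EAE mice 17.3, 23.1, 14.4, 18.0 and 9.69 RPKM. Only EAE replicate 5 lay within the Ctrl range. ADAMTS1 rose by 0.97 against Ctrl (SE 0.28, adjusted p = 0.0129), and by 0.69 without the libraries that stand apart (adjusted p = 0.0417). ADAMTS9 (Entrez 101401, chr6:92772699-92944450), which also cuts versican, went the other way from ADAMTS20. Its Ctrl mice had 0.657, 1.39, 1.18, 1.38 and 1.42 RPKM, OVA mice 0.818, 2.10, 2.22, 1.25 and 1.62 RPKM and EAE mice 0.550, 0.696, 0.688, 0.645 and 0.444 RPKM. EAE mice were below all OVA mice, and Ctrl replicate 1 reached into the EAE range. ADAMTS9 fell by 0.86 against Ctrl (SE 0.25, adjusted p = 0.0134) and by 1.21 against OVA (SE 0.25, adjusted p = 0.00229), the former not called on log2(RPKM + 1). The others that fell against Ctrl were ADAMTS15 (-1.11), ADAMTS10 (-0.96), the aggrecan-cutting ADAMTS5 (-0.81) and the procollagen protease ADAMTS2 (-0.73).

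ADAMTSL4 (Entrez 229595, chr3:95676201-95687927), which binds fibrillin microfibrils, fell the most among the ADAMTS-like genes. Ctrl mice of day 14 had 11.3, 11.7, 11.6, 15.2 and 17.6 RPKM, OVA mice 6.18, 10.8, 11.6, 11.3 and 9.04 RPKM and EAE mice 5.73, 2.62, 5.92, 8.70 and 3.25 RPKM. EAE mice were below all Ctrl mice, and the highest of them, replicate 4, was above the lowest OVA mouse. ADAMTSL4 fell by 1.45 against Ctrl (SE 0.28, adjusted p = 9.19e-04) and by 0.98 against OVA (SE 0.28, adjusted p = 0.0146). ADAMTSL1 (-0.77) and ADAMTSL2 (-0.75) fell against Ctrl, though not on log2(RPKM + 1), whereas ADAMTSL5 (-0.35) and ADAMTSL3 (0.04) were not called.

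The 4 TIMPs differed in their course. TIMP1 (Entrez 21857, chrX:20870166-20874737), the inducible inhibitor, had 18.2, 14.1, 10.6, 7.73 and 7.83 RPKM in Ctrl, 14.3, 8.80, 6.42, 7.80 and 20.4 in OVA and 7.77, 2.02, 6.96, 5.33 and 2.04 RPKM in EAE mice of day 14. EAE mice overlapped both other groups narrowly. TIMP1 fell by 1.39 against Ctrl (SE 0.41, adjusted p = 0.0143) and by 1.32 against OVA (SE 0.41, adjusted p = 0.0241), the latter lost in 4 of 10 fits that each left out 1 mouse and without the libraries that stand apart. TIMP4 (Entrez 110595, chr6:115244444-115252205) had 5.6, 5.6, 6.19, 6.28 and 5.23 RPKM in Ctrl, 21.2, 10.3, 9.66, 9.80 and 8.4 in OVA and 10.3, 11.3, 12.7, 11.1 and 11.7 RPKM in EAE mice. Both immunized groups were above all Ctrl mice. TIMP4 rose by 0.97 in EAE (SE 0.19, adjusted p = 0.00103), and the OVA difference of 0.94 (SE 0.19) had an adjusted p of 0.0516 in limma. That OVA difference was called without the libraries that stand apart and with quantile normalization. It was not called with log2(RPKM + 1), median-of-ratios scaling, the correction for exon length or the replicate number as a block. TIMP4 shares 90 exon bases with SYN2 on the other strand, which had a mean of 0.189 RPKM.

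TIMP2 (Entrez 21858, chr11:118301061-118355411), which takes part in the activation of MMP2, had 72.4, 83.2, 86.3, 84.0 and 97.7 RPKM in Ctrl, 63.7, 66.1, 58.6, 85.9 and 68.4 in OVA and 50.4, 54.2, 62.0, 58.7 and 57.4 RPKM in EAE mice of day 14. All EAE mice were below all Ctrl mice. The log2 difference of -0.58 (SE 0.11, adjusted p = 7.16e-04) stopped just short of the fold threshold of 1.5. TIMP2 was called lower with median-of-ratios scaling, with quantile normalization, without the libraries that stand apart and with the correction for exon length. It was not called with log2(RPKM + 1) or with the replicate number as a block. TIMP3 (Entrez 21859, chr10:86300412-86349505), which is bound to the matrix, had 27.8, 34.5, 34.0, 39.9 and 50.1 RPKM in Ctrl, 34.8, 41.4, 36.3, 40.4 and 30.1 in OVA and 30.9, 39.3, 46.9, 41.5 and 37.6 RPKM in EAE mice. The groups overlapped, with a log2 difference of EAE from Ctrl of 0.09 (SE 0.15) that changed its sign with quantile normalization and with the correction for exon length.

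EAE was next set against OVA at day 14, where both groups had received CFA. Of the 42 genes 1 was higher and 10 were lower, against 8.78% and 9.57% of all genes tested. ADAMTS20 was the higher one. The lower ones were TIMP1, MMP12, ADAMTS9, MMP23, ADAMTSL4, ADAMTS15 (-0.79), ADAMTSL1 (-0.76), ADAMTS5 (-0.71), MMP17 (-0.66) and ADAMTS3 (-0.65). No gene had all EAE mice above all OVA mice and 7 had all below, against 13.6% and 7.23% of all genes. The median log2 difference was -0.42 over the 42 genes and 0.05 over all genes. This comparison shares its EAE mice with that against Ctrl, and 8 genes were lower in both, of 17 and 10. Without the libraries that stand apart 0 were higher and 10 lower, 7 of them the same genes, and on log2(RPKM + 1) 1 and 5.

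CFA with ovalbumin was asked about by setting OVA against Ctrl. At day 14 it gave 1 higher gene, MMP8, and 1 lower gene, MMP2, against 0.133% and 0.109% of all genes. Without MMP8, 0 of 41 genes were called higher. An unadjusted p below 0.05 in limma was found for 13 of the 42 genes, MMP8 among them (31.0%, against 10.2% of all genes tested). MMP2 fell by 0.63 (SE 0.12, adjusted p = 0.0444), a call that was lost in 9 of 10 fits that each left out 1 mouse. This call was also lost with quantile normalization and with the replicate number as a block. TIMP4, ADAM33 and ADAMTS8, with the values given above, and ADAMTS10 (-0.70, adjusted p = 0.228) had groups that did not overlap and were not called in the main fit. TIMP4 and ADAM33 were called under some other settings, as given above. The share of all genes with groups that did not overlap was not counted for OVA against Ctrl, so these are single genes only. Without the libraries that stand apart 2 were higher, MMP8 and TIMP4 (0.76, adjusted p = 0.00791), and 0 lower. Neutrophil markers rose in 8 of 10 genes tested in this comparison, and no fibroblast, tendon or macrophage marker was called.

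**Figure D3:**
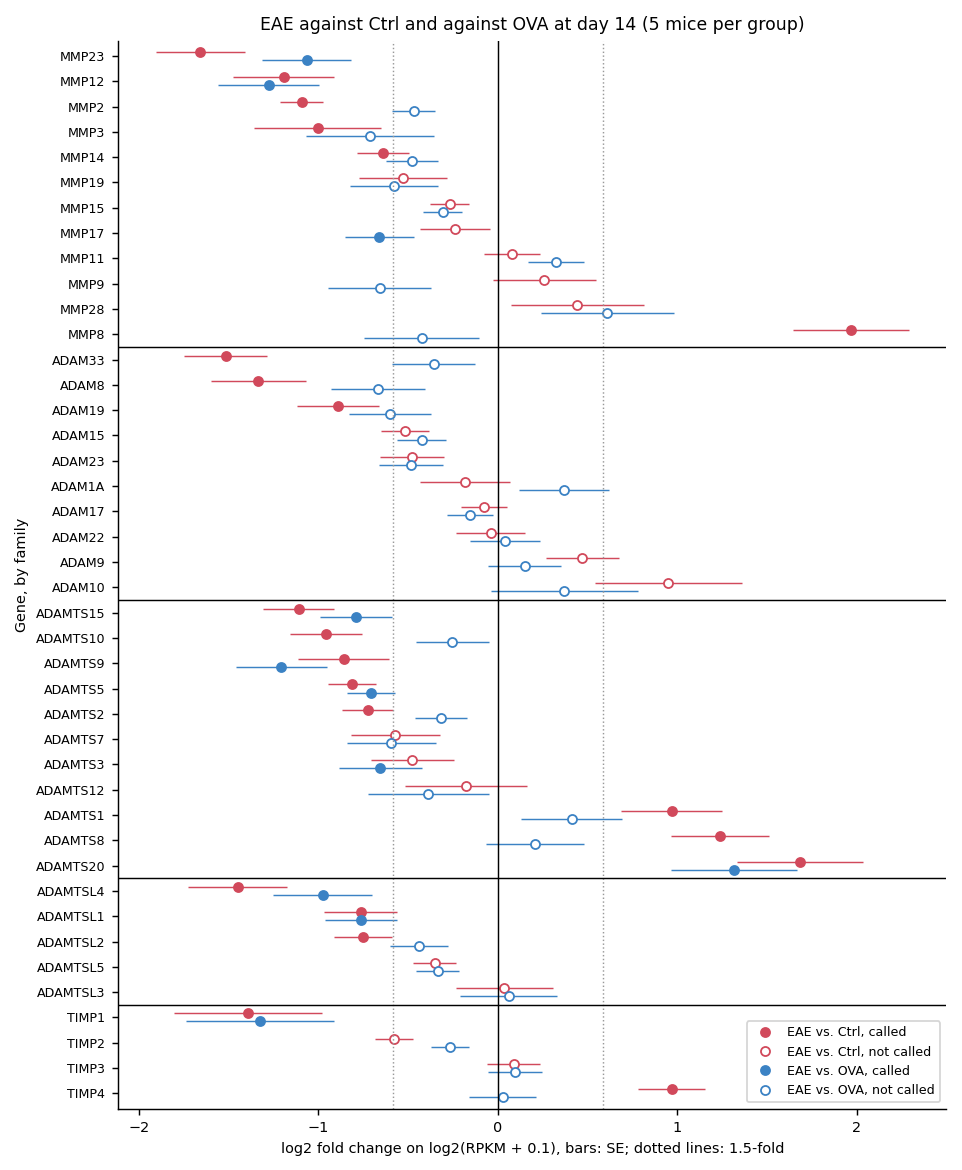
Log2 fold change of each of the 42 genes (rows, by family) at day 14 in EAE against Ctrl (red) and against OVA (blue), with SE bars, 5 mice per group. Filled points were called (5 higher, MMP8 among them, and 17 lower against Ctrl, 1 and 10 against OVA) and open points were not. Dotted lines mark a fold of 1.5, and both comparisons share the EAE mice.

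At day 40 none of the 42 genes was called in any of the 3 comparisons by limma. An unadjusted p below 0.05 was found for 8 of them in EAE against Ctrl, 6 in EAE against OVA and 3 in OVA against Ctrl, which is 19.0%, 14.3% and 7.1% of the 42, where 25.8%, 16.8% and 3.6% of all genes tested had one. Of all genes tested, 0.461%, 0.0781% and 0% were called in these comparisons, so few calls would be seen among 42 genes. The first of these shares stood for 8 higher and 51 lower genes, which came to 3 and 2 with median-of-ratios scaling and to 2 and 0 with quantile normalization. The lowest adjusted p was 0.0821, for ADAM17 in EAE against Ctrl. EAE mice had 8.28, 9.71, 8.03, 8.30 and 8.47 RPKM of ADAM17, Ctrl mice 10.2, 10.7, 12.9, 8.48 and 11.2 RPKM and OVA mice 9.57, 11.5, 10.4, 10.6 and 10.2 RPKM. EAE replicate 2 was the only EAE mouse within the range of either control group. The log2 difference of -0.31 (SE 0.10) from Ctrl was below the fold threshold. All 10 ADAMs had a log2 difference below 0, from -0.47 to -0.09, where the median over all genes tested was -0.09 and 65.0% of them were below 0. With median-of-ratios scaling 9 of the 10 were below 0, and ADAM15 was at 0.01. The most extreme difference was that of MMP3 (-1.17, SE 0.46, adjusted p = 0.133), in which Ctrl replicate 5 with 20.3 RPKM stood against 2.33 to 4.35 RPKM in the other Ctrl mice and 1.41 to 2.73 RPKM in EAE mice.

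For the other genes described in full, day 40 ranges overlapped between all groups. TIMP1 ran from 5.67 to 24.2 RPKM in Ctrl and from 6.47 to 11.3 RPKM in EAE mice. TIMP2 ran from 71.6 to 79.9 and from 68.9 to 84.1 RPKM, TIMP3 from 40.7 to 49.0 and from 35.1 to 44.0 RPKM, and TIMP4 from 3.67 to 8.00 and from 2.12 to 10.3 RPKM. Genes called higher in EAE mice at day 14 stood near the Ctrl mice of their own day. ADAMTS20 had 0.570 to 1.27 RPKM in EAE and 0.741 to 1.56 in Ctrl mice, ADAMTS8 2.36 to 3.97 and 2.49 to 3.68, and MMP8 0.0532 to 0.312 and 0.0717 to 0.621 RPKM. ADAM10 ran from 3.18 to 6.04 in EAE and from 3.75 to 9.61 RPKM in Ctrl mice, whose highest value came from the library that stands apart.

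Whether an effect differed between the days was tested as the difference of the 2 effects in all 30 mice. For EAE against Ctrl, 17 genes were called: 7 had a higher effect at day 14 (6 without MMP8) and 10 a lower one, against 18.7% and 11% of all genes. The higher ones were MMP8 (1.93), ADAMTS20 (1.76), ADAM10 (1.42), TIMP4 (1.33), ADAMTS8 (1.16), ADAMTS1 (1.13) and ADAM9 (0.68). The lower ones were MMP23 (-1.8), ADAMTSL4 (-1.50), ADAMTS15 (-1.45), ADAMTSL2 (-1.23), MMP2 (-1.11), ADAM8 (-1.11), ADAM33 (-1.04), ADAMTS5 (-0.72), ADAMTS2 (-0.63) and MMP14 (-0.59). All 5 genes higher at day 14 were among the former, and the latter were 10 of the 17 lower at day 14. The difference tested here contains the day 14 effect of the same mice, so this overlap is in part fixed in advance. ADAM10 and ADAM9 were the only ones called here and not at day 14, and their values were low in Ctrl replicate 1 of day 14 (8.51 RPKM of ADAM9, where the other 4 had 17.9 to 21.4 RPKM). ADAM10 was still called without the libraries that stand apart (0.86, adjusted p = 0.00919) and ADAM9, ADAMTS1 and MMP14 were not. MMP14 was also lost in 9 and ADAMTS2 in 5 of 20 fits that each left out 1 mouse, and TIMP4 with the correction for exon length. TIMP1 was not called (-1.0, SE 0.53, adjusted p = 0.129). The median of this difference over all genes was 0.125 and came to 0.005 with median-of-ratios scaling, where the split of all calls moved from 2389 higher and 1405 lower to 1740 and 1911, and that of the 42 genes from 7 and 10 to 6 and 14.

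For EAE against OVA the difference between the days was called for 1 higher gene and 5 lower genes, against 11.4% and 6.82% of all genes. ADAMTS20 (1.5) was higher, and MMP23 (-1.1), ADAMTS9 (-1.06), ADAMTSL4 (-0.98), ADAMTS15 (-0.76) and ADAMTS5 (-0.59) were lower. With median-of-ratios scaling 1 and 7 of the 42 genes were called, and the split of all calls moved from 1460 and 874 to 1003 and 1185. Without the libraries that stand apart ADAMTS20 (0.93, adjusted p = 0.0562), MMP23 and ADAMTS15 were not called. Leaving out 1 mouse at a time lost ADAMTS15 in 10, ADAMTS5 in 9 and ADAMTSL4 in 8 of 20 fits.

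**Figure D4:**
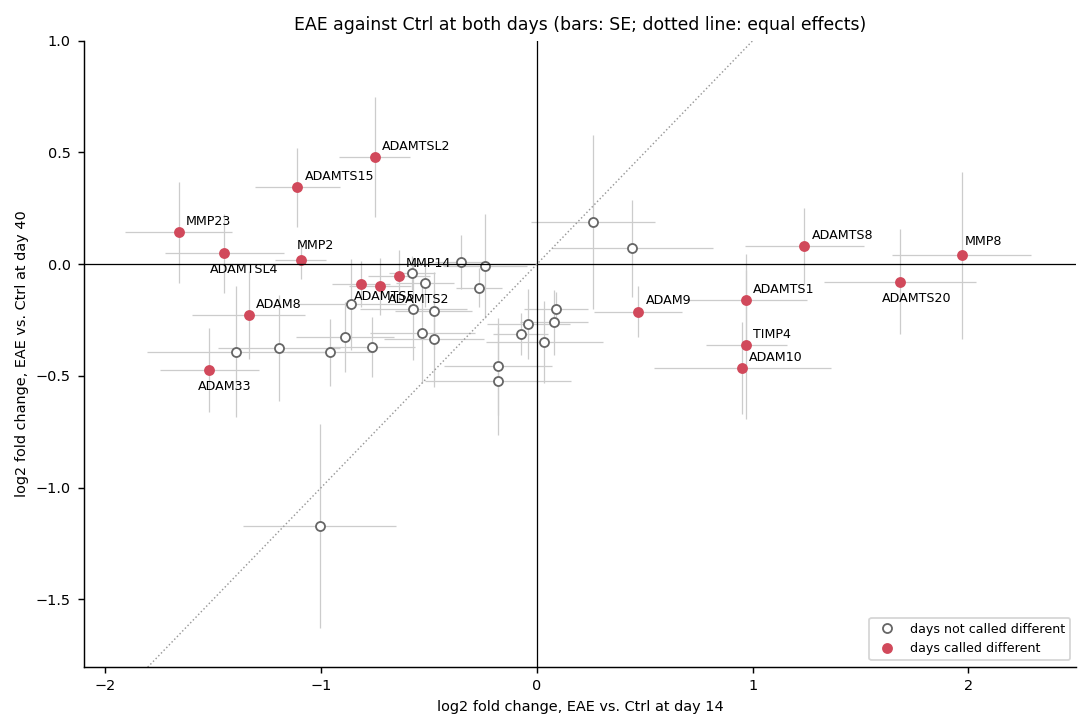
Log2 fold change of EAE against Ctrl at day 14 (horizontal) and at day 40 (vertical) for the 42 genes, with SE bars. Filled and named points are the 17 genes, MMP8 among them, whose effect was called different between the days. All points but MMP3 (-1.17) lie between -0.52 and 0.48 on the vertical axis. On the dotted line both effects would be equal.

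Genes that act with these proteases were taken from 5 lists. Their counts in EAE against Ctrl at day 14 stand against the 12% of all genes called higher and the 13.8% called lower. Of the 29 matrix substrates tested, 22 fell and 0 rose in EAE against Ctrl at day 14, with a median log2 fold change of -1.02. COL1A1 and COL1A2, the chains of type I collagen, fell the most, from 432 ± 197 to 30.3 ± 11.5 RPKM (-3.77, adjusted p = 2.80e-06) and from 444 ± 210 to 44.2 ± 16.2 RPKM (-3.23, adjusted p = 1.04e-05) (SD, n = 5). Against OVA 20 of 29 fell, where 9.57% of all genes tested were called lower, and in OVA against Ctrl 0 were called. The count stood beside the fibroblast and tendon markers given above, most of which were lower though SCX was higher. Of the listed substrates, 4 (DCN, LUM, FMOD and COMP) are also on those marker lists.

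The list of activation and pericellular control of metalloproteinases gave 4 higher and 8 lower genes of 23 tested. LCN2, which binds MMP9 and is itself a neutrophil marker, rose from 1.00 ± 0.628 to 12.4 ± 3.52 RPKM (3.72, adjusted p = 1.21e-05), and the syndecan SDC4 from a mean of 20.3 to 38.8 RPKM (0.85, adjusted p = 0.00919). The collagen-binding SPARC fell from 268 ± 84.3 to 53.3 ± 7.06 RPKM (-2.27, adjusted p = 3.13e-06) and the proprotein convertase PCSK6 from 10.4 ± 1.73 to 5.49 ± 1.87 RPKM (-0.96, adjusted p = 0.00265). Against OVA 2 rose and 8 fell, where 8.78% and 9.57% of all genes tested were called higher and lower. In OVA against Ctrl LCN2 alone was called (3.28, adjusted p = 0.00171).

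Of the 8 ADAM partners tested, RHBDF2 (iRhom2), which carries ADAM17 to the cell surface, rose and TSPAN14, a tetraspanin that binds ADAM10, fell. RHBDF2 went from 4.28 ± 0.748 to 8.02 ± 2.17 RPKM (0.87, adjusted p = 7.37e-04) and TSPAN14 from 10.4 ± 0.966 to 5.47 ± 1.29 RPKM (-0.94, adjusted p = 2.19e-04) against Ctrl. Against OVA the differences were 1.04 and -0.78, both called. Among 26 sheddase substrates tested 2 rose and 4 fell against Ctrl, with a median log2 fold change of 0.0020. These counts, like those of the ADAM partners, were near the 12% and 13.8% of all genes, so they describe single genes and not the lists. The adhesion molecule NCAM1 rose from 1.28 ± 0.268 to 7.91 ± 2.73 RPKM (2.49, adjusted p = 2.98e-06) and the Notch ligand DLL1 from 3.27 ± 1.21 to 7.66 ± 2.17 RPKM (1.24, adjusted p = 0.00116). TNF fell from 0.829 ± 0.311 to 0.226 ± 0.123 RPKM (-1.52, adjusted p = 0.00134) and CXCL16 from 4.77 ± 1.26 to 1.93 ± 0.622 RPKM (-1.28, adjusted p = 2.84e-04). Of 8 metalloproteinases of other families tested, ECE2 rose (0.80, adjusted p = 0.00540), and BMP1 (-1.54, adjusted p = 1.17e-05), which removes the carboxyl propeptide of procollagens, and ANPEP (-0.91, adjusted p = 7.80e-04) fell.

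**Figure D5:**
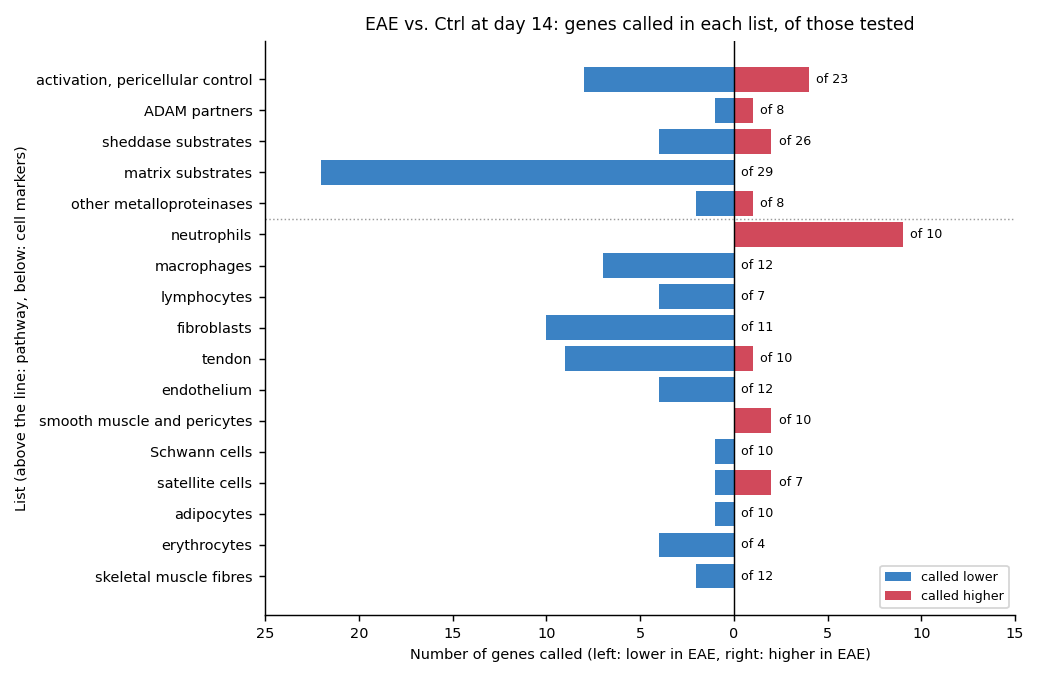
Number of genes called lower (blue, left of 0) and higher (red, right of 0) in EAE against Ctrl at day 14 in each of 5 pathway lists and 12 lists of cell markers, with the number tested at the right. Matrix substrates (22 of 29 lower), fibroblasts (10 of 11) and tendon (9 of 10) lie to the left and neutrophils (9 of 10 higher) to the right.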

How the data were processed

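EDL muscle of 30 mice was measured by poly(A) RNA-Seq. The authors aligned paired-end reads to mm10 with Subread, counted them on RefSeq transcripts with featureCounts, computed RPKM and deposited log2 values, read here as log2(RPKM + 1), in which 0.0001 marks that no read was found. Low values came out as whole reads (within 0.05 of a read) for 98.8% of 9434 values on the log2 scale and for 46.6% on a linear scale, so the values were turned back into RPKM. Counts were not used. Genes with a mean above 0.3 RPKM over all mice (12806) were tested on log2(RPKM + 0.1) with limma 3.58.1 in R 4.3.3 (lmFit, eBayes with a mean-variance trend), fitting all 15 mice of the same day together. Fold changes are on this scale, which understates those of low genes. Benjamini-Hochberg adjustment was over all genes tested, and genes with an adjusted p below 0.05 and a fold above 1.5 were called. A difference between days was a contrast in all 30 mice.

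Described in full were the TIMPs, MMP2, MMP9, MMP14, ADAM10 and ADAM17, and in each comparison within a day the 5 higher and 5 lower called genes with the largest fold change. The genes, lists and rules were chosen with earlier results of these data known. Alternatives were other scalings, filters, pseudocounts, models and samples.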

Additional observations from a re-analysis of the deposited data

Results flagged for a closer look

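A single mouse stood apart from the other 4 of its group, by a gap larger than Dixon's 95% limit, in 8 of 114 groups of mice tested over the 19 genes described in full. Chance flags about 1 in 20 groups. MMP9 was 2.35 RPKM in Ctrl replicate 5 of day 40, where the others had 0.232 to 0.588 RPKM, and TIMP4 was 21.2 RPKM in OVA replicate 1 of day 14. ADAM33 (1.57 RPKM) and ADAM8 (1.38 RPKM) were high in EAE replicate 3 of day 14, the library with the most reads. ADAMTS8 was 13.4 RPKM in EAE replicate 4 of day 14. At day 40, ADAM33 was 2.75 RPKM in EAE replicate 1, ADAM17 9.71 RPKM in EAE replicate 2 and ADAMTS9 2.33 RPKM in Ctrl replicate 3, a library in which long genes read high.

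The effect of EAE differed between the days, by the test of the difference itself in limma, for 17 genes against Ctrl. These were 7 higher and 10 lower, against 18.7% and 11% of all genes tested. MMP8 is among the 7, its difference is a description, and the count without it is given above. The log2 differences (day 14 minus day 40) were 1.93 for MMP8, 1.76 for ADAMTS20, 1.42 for ADAM10, 1.33 for TIMP4, 1.16 for ADAMTS8, 1.13 for ADAMTS1 and 0.68 for ADAM9. They were -1.8 for MMP23, -1.5 for ADAMTSL4, -1.45 for ADAMTS15, -1.23 for ADAMTSL2, -1.11 for MMP2, -1.11 for ADAM8, -1.04 for ADAM33, -0.72 for ADAMTS5, -0.63 for ADAMTS2 and -0.59 for MMP14. Against OVA they were 1.5 for ADAMTS20, -1.1 for MMP23, -1.06 for ADAMTS9, -0.98 for ADAMTSL4, -0.76 for ADAMTS15 and -0.59 for ADAMTS5.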

How the results depend on the processing

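Of 2728 log2 differences of single genes, each recomputed under another setting, 2489 kept their direction and their side of the thresholds, 120 lost the call and 33 gained it. The other 86 changed sign, in 22 gene and comparison pairs that were called under neither setting, with values of at most 0.37 in size. Among differences printed above these were TIMP3 at day 14 in EAE vs. Ctrl (-0.026 with quantile normalization, -0.048 with the correction for exon length, -0.010 to 0.20 with 1 mouse left out), ADAMTSL3 (-0.045 without the libraries that stand apart, -0.20 with the correction, -0.17 to 0.17 with 1 mouse left out) and ADAM15 at day 40 (0.0052 with median-of-ratios scaling). The counts of called genes moved by over 1.5 times as follows, and the cause was not tested. With only genes above 3 RPKM in a compared group, which leaves 17 to 21 of the 42 genes in the test, EAE vs. Ctrl at day 14 gave 3 higher and 8 lower, EAE vs. OVA 0 and 3, OVA vs. Ctrl 0 and 0, and the differences between days 6 lower (EAE vs. Ctrl) and 0 higher and 2 lower (EAE vs. OVA). On log2(RPKM + 1), lower genes came to 5 in EAE vs. OVA at day 14, 2 in OVA vs. Ctrl and 2 in the difference between days for EAE vs. OVA. For OVA vs. Ctrl at day 14, lower genes came to 0 without a filter, 2 with median-of-ratios scaling and 0 with only the compared mice, higher genes to 2 with quantile normalization, and all 30 mice in 1 model gave 2 and 2. With only the 4 compared groups, the difference between days for EAE vs. OVA had 2 higher.

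The settings chosen after seeing the data moved these counts. Without the libraries that stand apart, EAE vs. OVA at day 14 had 0 higher, and OVA vs. Ctrl had 2 higher and 0 lower. With the correction for exon length, lower genes came to 16 in EAE vs. OVA and 2 in OVA vs. Ctrl at day 14, and to 17 and 11 in the differences between days for EAE vs. Ctrl and EAE vs. OVA.

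With 1 mouse left out at a time, higher and lower genes ranged from 5 to 6 and from 15 to 20 in EAE vs. Ctrl at day 14, from 1 to 1 and from 8 to 14 in EAE vs. OVA, and from 1 to 2 and from 0 to 1 in OVA vs. Ctrl. At day 40 EAE vs. Ctrl had 0 higher and 0 to 1 lower, and the other comparisons 0. The differences between days ranged from 6 to 7 and from 8 to 12 for EAE vs. Ctrl and from 1 to 3 and from 1 to 9 for EAE vs. OVA, where the lowest count of lower genes was that without EAE replicate 2 and the highest that without EAE replicate 3 of day 14. The highest counts of higher genes there were those without OVA replicate 4 of day 14 or EAE replicate 4 of day 40, and in OVA vs. Ctrl those without OVA replicate 1 or 5. The single call at day 40 arose without Ctrl replicate 4. With the replicate number as a block, EAE vs. Ctrl at day 14 gave 6 higher and 17 lower, EAE vs. OVA 2 and 11, and OVA vs. Ctrl 1 and 0. At day 40 the block gave 0 calls. Deviations of mice with the same number correlated above 0.1 in 4 of 5 pairs in EAE vs. OVA at day 14 (-0.01 to 0.59) and in at most 1 of 5 pairs in the other comparisons (-0.59 to 0.52), short of every pair, and no source ties the numbers to a shared litter or batch. Replicate 1 of all 3 groups of day 14 stood apart in the same direction by exon length.

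Depth limits the lowest genes: MMP8 rested on 22 reads over the 5 Ctrl mice of day 14. By the deposited log2 scale in place of RPKM, 46 genes would pass the mean of 0.3.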
